A study of Caenorhabditis elegans with 4 samples.

Results

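The genes described here decide whether a Caenorhabditis elegans germ cell becomes sperm or oocyte and whether the body is hermaphrodite or male. The 10 genes listed were fog-1, fog-2, fog-3, fem-1, fem-2, fem-3, tra-1, tra-2, tra-3 and her-1. A gene was taken as measured when a probe's platform annotation named it and no other gene, which held for 7 of the 10, each with 1 probe, among 14887 named genes tested. fog-1, tra-1 and tra-2 were matched by no such probe and are not analysed here. RNA of wild-type worms at L4, the last larval stage, was hybridised on 4 arrays with 2 channels each. Channel 2 of each array held 1 of 4 L4 preparations and channel 1 held a wild-type mixed reference RNA. The labels give no sex, strain name or culture of the worms and no composition of the reference. Nothing in them says that the preparations were separate cultures, so p-values measure only the spread between these samples, which may be technical. The reference counts as 1 sample, and its own spread is not in the test.

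In the textbook pathway, the secreted protein HER-1 marks the male state and inactivates the membrane receptor TRA-2, which otherwise holds the 3 FEM proteins in check. The FEM proteins promote degradation of TRA-1, the zinc finger protein at the end of the pathway that sets female fates. In a hermaphrodite, sperm form first, during L4, and oocytes follow in the adult. The F-box protein FOG-2, together with the RNA binding protein GLD-1, lowers TRA-2 translation so that the hermaphrodite can make sperm at all. FOG-3 acts at the end of the pathway and is required for germ cells to become sperm.

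Values are log2 ratios between the channels of an array after the array's median was set to 0. No source states which channel is the numerator. Because the labels name L4 first, against the reference, values above 0 are taken as likely higher in L4, and "higher" and "lower" carry that limit. Each gene's mean was tested against 0 with limma, two-sided. Adjusted p-values are Benjamini-Hochberg values over all 19897 probes and genes tested, with 0.05 as the threshold. In bulk RNA, fewer cells of a type and less RNA per cell cannot be told apart.

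Of the 7 measured genes, 1 was higher in L4, 0 were lower and 6 did not pass. The shares among all 14887 named genes were 13.4% higher and 9.66% lower, so the share of 1 in 7 is close to the background. At an unadjusted p under 0.05 in limma, 2 of the 7 passed, fog-3 and her-1. So did 5746 of the 14887 named genes, a larger share. fog-3 and her-1 were also the members with 1 sign on all 4 arrays, which 47.1% of the named genes with 4 values had. The median of the 7 means was -0.36, against 0.04 over all named genes.

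fog-3 (C03C11.2), which commits germ cells to sperm, was the member called higher. Its log2 ratios were 0.59, 0.59, 0.75 and 0.78 in preparations 1 to 4. All 4 were above 0 and lay within 0.19 log2 units of each other. The mean was 0.68 ± 0.20 (SE, n = 4), a 1.6-fold difference, with a 95% interval from 0.22 to 1.14 and an adjusted p of 0.0451 in limma. The plain SD of fog-3 over the arrays was 0.10, smaller than that of nearly all named genes (percentile 1.26). limma draws each gene's variance toward a common value, and the SE of fog-3 is therefore wider than its SD alone implies. The call was close to the threshold. Without preparation 1, 2, 3 or 4 the adjusted p was 0.172, 0.0872, 0.0888 and 0.109, with means from 0.64 to 0.71. It was 0.0566 with values as deposited and 0.139 with each array centred on housekeeping genes.

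her-1 (ZK287.8), which encodes the secreted signal of the male state, lay on the other side of 0. Its log2 ratios were -0.69, -0.69, -0.38 and -0.83 in preparations 1 to 4, so all 4 were below 0. The mean was -0.65 ± 0.21 (SE, n = 4), 1.56-fold below the reference, with a 95% interval from -1.12 to -0.17. It missed the threshold at an adjusted p of 0.0585 in limma, and passed with values as deposited (adjusted p = 0.0456). fog-3 exceeded her-1 on every array, by 1.32 ± 0.20 (SD, n = 4) on the log2 scale.

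**Figure D1:**
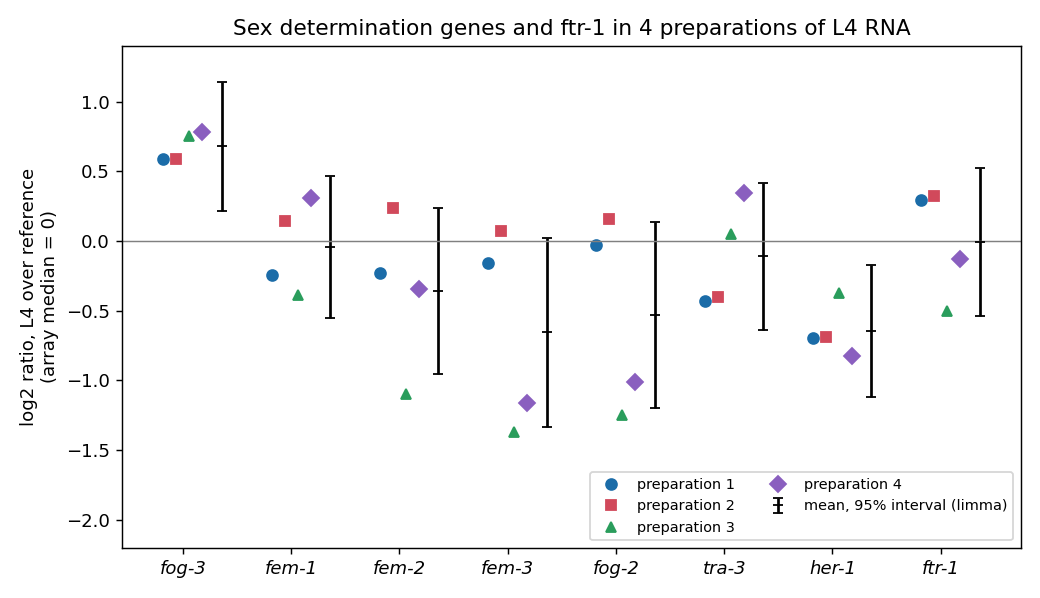
Log2 ratio of L4 over reference for the 7 measured sex determination genes and ftr-1, the neighbour of fog-2. Coloured points are the 4 preparations and black bars are the mean with limma's 95% interval. fog-3 lies above 0 and her-1 below 0 on all 4 arrays, while fem-3 and fog-2 lie near 0 in preparations 1 and 2 and below -1 in preparations 3 and 4.

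None of the 3 FEM genes passed the test, and their values differed across the arrays in different ways. fem-3 (C01F6.4), whose mRNA the FBF proteins repress at the switch from sperm to oocytes, had log2 ratios of -0.16, 0.07, -1.37 and -1.16 in preparations 1 to 4. Preparations 1 and 2 were near the reference, and preparations 3 and 4 were well below it. The mean was -0.65 ± 0.29 (SE, n = 4; 95% interval -1.33 to 0.02), with an adjusted p of 0.147 in limma. On its array, fem-3 stood at percentile 37.1 and 52.1 of the named genes in preparations 1 and 2, and at 7.87 and 4.92 in preparations 3 and 4. The array titles hold codes and dates that differ between the arrays, and their meaning is not stated. The dates of preparations 1 and 2 are later than those of preparations 3 and 4. Their part in this split, for fem-3 or for the genes and markers below, was not tested.

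fem-2 (T19C3.8), which encodes a protein phosphatase of the 2C type, had log2 ratios of -0.23, 0.24, -1.09 and -0.35 in preparations 1 to 4. Its low value was in preparation 3 alone. The mean was -0.36 ± 0.26 (SE, n = 4; 95% interval -0.95 to 0.24), with an adjusted p of 0.346 in limma. fem-1 (F35D6.1), which encodes an ankyrin repeat protein that binds the TRA-1 degradation machinery, had log2 ratios of -0.24, 0.15, -0.39 and 0.31. Its signs were split between the arrays and it lay in no consistent place relative to the reference. The mean was -0.04 ± 0.22 (SE, n = 4; 95% interval -0.55 to 0.46). That interval does not show an equal level in L4 and the reference.

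fog-2 (Y113G7B.5) followed fem-3 from array to array. Its log2 ratios were -0.03, 0.16, -1.25 and -1.01 in preparations 1 to 4, again near 0 in the first pair and low in the other pair. The mean was -0.53 ± 0.29 (SE, n = 4; 95% interval -1.20 to 0.14), with an adjusted p of 0.221 in limma. fem-3 minus fog-2 was -0.13, -0.09, -0.12 and -0.15, a mean of -0.12 ± 0.03 (SD, n = 4), although each gene alone spanned more than 1.4 log2 units. In the root mean square difference over the 4 arrays, 0.124, fem-3 was the third nearest of 14371 named genes to fog-2, and fog-2 ranked 7 for fem-3. The pair was the closest of the 21 pairs of members and was picked out with its values in view. Its likeness is a description over 4 arrays that share their reference and array normalization. Among members, the next nearest to fog-2 was fem-2, at rank 250 with 0.359.

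fog-2 has a near relative, ftr-1 (Y113G7B.4), and RefSeq places 0 protein-coding genes between them. How far the probe of one also binds RNA of the other was not tested. The log2 ratios of ftr-1 were 0.29, 0.32, -0.50 and -0.13 in preparations 1 to 4. ftr-1 exceeded fog-2 on every array, with fog-2 minus ftr-1 at -0.32, -0.16, -0.74 and -0.88, so the 2 probes did not give one value. Both were lower in preparations 3 and 4 than in 1 and 2.

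tra-3 (LLC1.1), which encodes a calpain protease that cleaves TRA-2, ran the other way across the arrays. Its log2 ratios were -0.43, -0.40, 0.05 and 0.34 in preparations 1 to 4. It was lower in preparations 1 and 2 than in 3 and 4, the reverse of fem-3 and fog-2. The mean was -0.11 ± 0.23 (SE, n = 4; 95% interval -0.63 to 0.42), with an adjusted p of 0.756 in limma.

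By mean log2 ratio the members ranked fog-3, fem-1, tra-3, fem-2, fog-2, her-1 and fem-3. Of the 21 pairs of members, 8 had a difference of 1 sign on all 4 arrays. All 6 pairs with fog-3 were among them, with fog-3 higher by 0.72 ± 0.33 over fem-1, its neighbour in that order, and by 1.33 ± 0.82 (SD, n = 4) over fem-3. The other pairs were fem-3 below fog-2 and her-1 below tra-3. An exact sign-flip test over 4 arrays, two-sided, cannot go below p = 0.125, which these 8 pairs reached, and adjusted over the 21 pairs it was 0.328. The order of the members is thus given without a significant difference between neighbours. From fem-1 down to fem-3, the differences of neighbours in the order did not keep 1 sign on all 4 arrays.

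**Figure D2:**
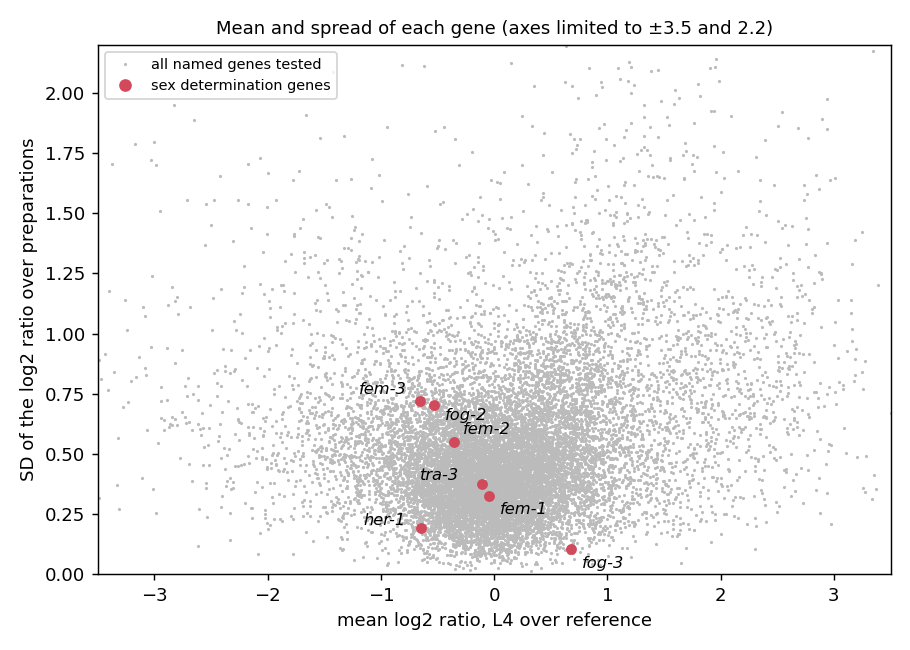
Mean log2 ratio (horizontal) against the SD over preparations (vertical) for each named gene tested (grey) and the 7 members (red). fog-3 (SD 0.10) and her-1 (SD 0.19) lie at the lower edge of the cloud, and fem-3 (SD 0.72) and fog-2 (SD 0.70) lie in its upper part.

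The spread between preparations also varied from member to member, which was not tested. Against all named genes, the SD of fem-3 stood at percentile 79.7 and that of fog-2 at 78.5, while fem-2 stood at 63.1, tra-3 at 33.6 and fem-1 at 24.7. her-1, with an SD of 0.19, stood at percentile 6.42. The small spread of fog-3 and her-1 depended on the centring. With each array centred on 17 housekeeping genes, fog-3 was at 0.63, 0.39, 1.28 and 0.40 and her-1 at -0.65, -0.89, 0.16 and -1.21 in preparations 1 to 4. On that scale her-1 was above 0 in preparation 3, and the SDs were 0.42 and 0.58. fem-3 and fog-2 kept their low values there, at -0.84 and -0.72 in preparation 3 and -1.54 and -1.39 in preparation 4. The median over the housekeeping probes, which was subtracted there, stood at -0.04, 0.20, -0.53 and 0.38 relative to the array medians of preparations 1 to 4.

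The preparations also differed in their germ cell markers. The median log2 ratio of 22 oocyte and eggshell genes was -0.98, 0.13, -2.79 and -2.76 in preparations 1 to 4. Like fem-3 and fog-2, it was much lower in preparations 3 and 4 than in 1 and 2. Of these genes 10 were lower and 0 higher in limma, against 9.66% lower and 13.4% higher among all named genes. perm-2, an eggshell gene, was at -2.55 and pos-1, a maternal RNA binding protein gene, at -2.42. The count of 10 rested on single preparations, at 20 without preparation 2, 0 without preparation 3 (9 at an unadjusted p under 0.05 in limma) and 2 without preparation 4. Leaving out 1 preparation gave means of -3.11 to -1.95 for perm-2 and -3.07 to -1.93 for pos-1. perm-2 did not pass without preparation 3 (limma adjusted p = 0.0744), and pos-1 without preparation 3 or 4 (0.0915 and 0.0647). In preparations 1, 3 and 4 the highest gene of this list was glp-1. On single arrays the oocyte and eggshell genes ranged from -1.77 to -0.14, -0.86 to 1.08, -5.17 to -0.95 and -4.34 to -0.33. Their part in the values of fem-3 and fog-2 was not tested.

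The median of the sperm markers was also lower in preparations 3 and 4 than in 1 and 2, but stayed above 0. The median of 46 sperm genes was 3.18, 3.45, 2.16 and 1.18 in preparations 1 to 4. Of the 46, 43 were higher and 0 lower, against 13.4% higher and 9.66% lower among all named genes. ssp-16, measured on 3 arrays, was at 3.17 and sss-2 at 3.03. Many of the 46 are msp genes, and how far their probes bind each other's RNA was not tested. fog-3 varied by 0.19 on the log2 scale across preparations whose sperm median varied by 2.27. With housekeeping centring fog-3 was not as steady, with 1.28 in preparation 3 and 0.39 to 0.63 in the others. Yolk genes, made by the adult intestine, had medians of -2.22, -0.73, -3.33 and -5.28 over 3 genes, of which vit-6 had no value in preparation 1. vit-5 and vit-2 were lower, at -3.18 and -2.83. Leaving out 1 preparation gave means of -3.86 to -2.47 for vit-5 and -3.53 to -2.01 for vit-2, and neither passed without preparation 3 (limma adjusted p = 0.0605 and 0.0937). The median of 24 germ granule, stem cell and meiosis genes was 0.13, 0.68, -0.62 and -0.05, again lower in preparations 3 and 4. glh-1, which encodes a helicase of the germ granules, was the 1 gene higher, at 0.99. That is 4.17% of this list, below the 13.4% of all named genes. Tested singly, the 2 probes of glh-1 gave 0.79 and 1.19, and only the second passed (limma adjusted p = 0.0916 and 0.0151). The adjusted p of glh-1 in limma rose to 0.0994, 0.113 and 0.106 when preparation 1, 2 or 4 was left out.

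For her-1, the markers of interest are those of males. Of 11 genes of male-specific neurons, seminal fluid and male tail development, 0 were higher and 1 was lower, cwp-4 at -0.89 ± 0.23 (SE, n = 4; adjusted p = 0.0298 in limma). Over all named genes 9.66% were lower, so 1 of these 11 male genes is close to the background. Over preparations 1 to 4 the median of these genes was 0.08, 0.38, 0.39 and 0.02. The means of 8 of the 11 lay above 0. Among all named genes the share was smaller, with 7867 of 14887 above 0. The mean of her-1 lay below 0. The part of males in the RNA was not tested. The adjusted p of cwp-4 was 0.0776 with housekeeping centring and 0.154, 0.0887 and 0.0778 when preparation 1, 2 or 3 was left out.

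**Figure D3:**
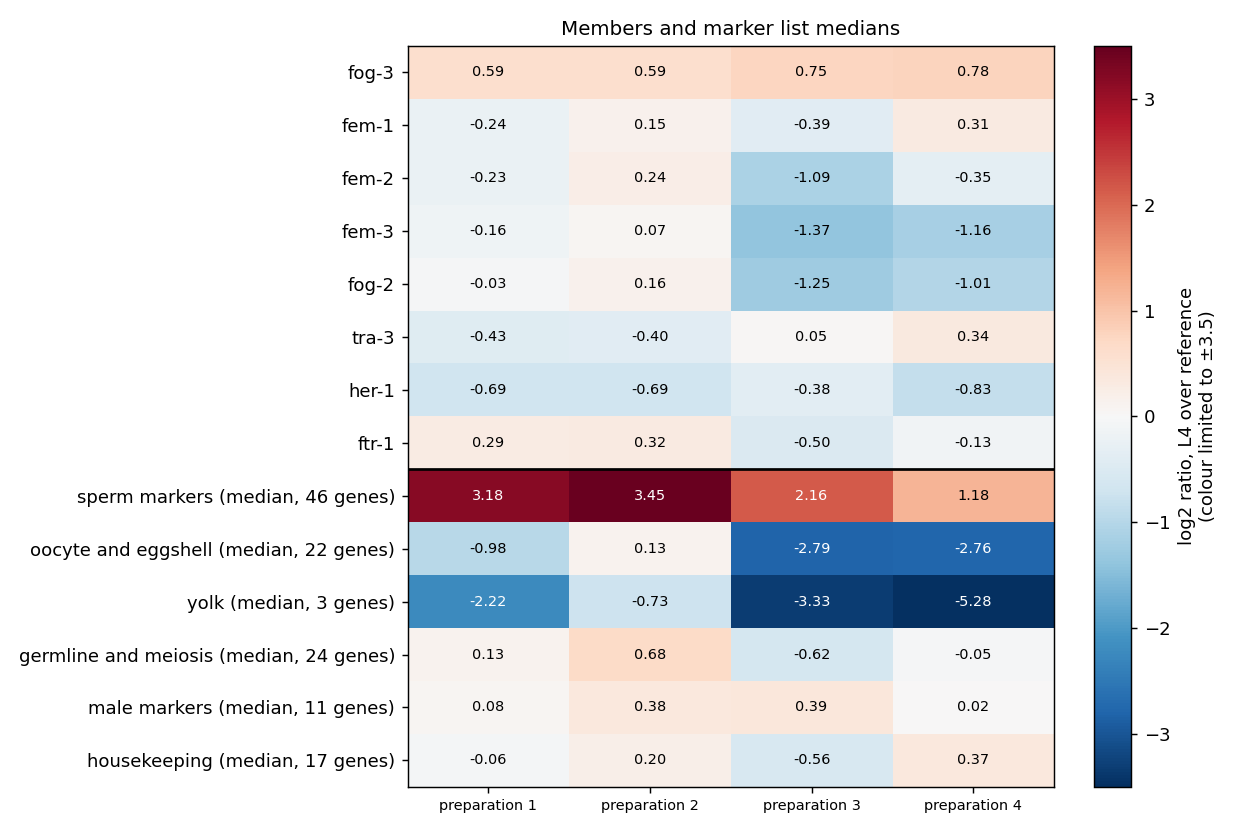
Log2 ratio of L4 over reference in each preparation for the members and ftr-1 (above the line) and the median of each marker list (below it), with red above and blue below the reference. fem-3 and fog-2 were lower in preparations 3 and 4 than in 1 and 2, as were the oocyte, yolk, sperm and germline medians. fog-3 stays between 0.59 and 0.78.

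Counts of the other genes of the pathway are to be read against the background of 13.4% higher and 9.66% lower. A list of regulators of the switch between sperm and oocytes, or of tra-2, had 18 measured genes. Of these, 0 were higher, 1 was lower and 17 did not pass, with a median of -0.07. The 1 lower was sup-26, which encodes an RNA binding protein that represses tra-2. Whether its RNA came from the germline or the body was not tested, and 0 of the switch genes besides it passed. Its log2 ratios were -1.88, -2.47, -2.76 and -0.83 in preparations 1 to 4. It was below 0 on every array, with a mean of -1.99 ± 0.33 (SE, n = 4), 3.96-fold below the reference, at an adjusted p of 0.00465 in limma, and its 2 probes gave -2.01 and -1.97. The partner of FOG-2, gld-1, picked with its values in view, was at -0.28, 0.51, -1.29 and -0.90, with a mean of -0.49 ± 0.31 (SE, n = 4) and an adjusted p of 0.286. As for fog-2, its lowest values were those of preparations 3 and 4.

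Upstream of her-1 stand the genes that read the number of X chromosomes, and with them the dosage compensation genes. Of 12 measured, 0 were higher, 1 was lower and 11 did not pass, with a median of -0.09. The 1 lower was fox-1, an RNA binding protein gene that is part of the X chromosome count. Its log2 ratios were -0.97, -1.55, -1.38 and -0.48, all below 0. The mean was -1.10 ± 0.25 (SE, n = 4), 2.14-fold below the reference, at an adjusted p of 0.0159 in limma. Without preparation 2 or 3 its adjusted p was 0.0544 and 0.067. xol-1, the switch gene that these signals act on, also picked with its values in view, was at 0.25 ± 0.20 (SE, n = 4) with an adjusted p of 0.402.

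Around TRA-1, 0 of 6 degradation and cofactor genes passed in limma, and 0 at an unadjusted p under 0.05, which 5746 of the 14887 named genes had. The median of the 6 was -0.35. The largest was tra-4, which encodes a partner of TRA-1, at -0.50 ± 0.24 (SE, n = 4; adjusted p = 0.168), followed by the ubiquitin ligase gene rbx-1 at -0.40 ± 0.23 (adjusted p = 0.244). Of the somatic targets of TRA-1, 2 were measured and 0 passed, also unadjusted. ceh-30, a homeobox gene of a male neuron's survival, was at -0.20 ± 0.23, and dmd-3, a gene of male tail shape, at 0.16 ± 0.26 (SE, n = 4).

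Early regulators of the sperm program were split. Of 4 measured, 1 was higher, 1 lower and 2 did not pass. spe-44, a transcription factor gene of the sperm program, had log2 ratios of 0.73, 1.26, 0.58 and 1.35 in preparations 1 to 4. All lay above 0, and the mean was 0.98 ± 0.23 (SE, n = 4), a 1.97-fold difference at an adjusted p of 0.0193 in limma. elt-1, a GATA factor gene of sperm and epidermis, was at -0.50, -1.05, -1.05 and -0.61, with a mean of -0.80 ± 0.22 (SE, n = 4) and an adjusted p of 0.0331. The call of spe-44 was lost when preparation 1, 2 or 4 was left out, at limma adjusted p of 0.0555, 0.0623 and 0.0671. That of elt-1 was lost when any 1 preparation was left out, at 0.0614 to 0.0972, and with housekeeping centring, at 0.0843.

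**Figure D4:**
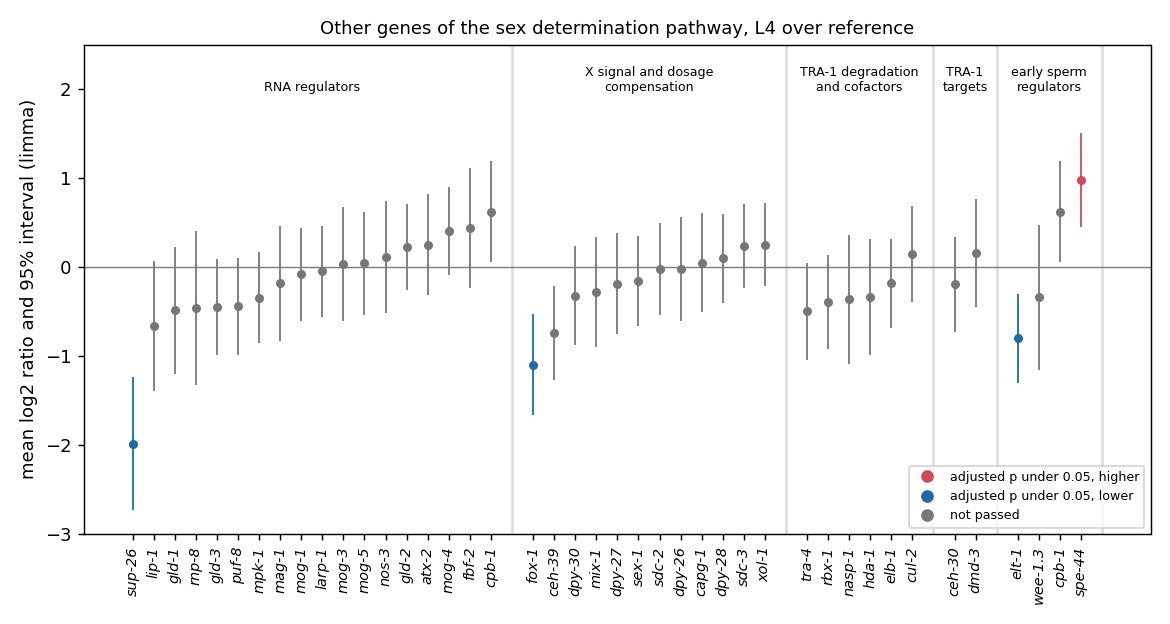
Mean log2 ratio with limma's 95% interval for each measured gene of the 5 pathway lists, by list and in order of the mean. sup-26, fox-1 and elt-1 (blue) were lower, spe-44 (red) was higher, and the grey genes did not pass; cpb-1 stands in 2 lists.

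The genes nearest to each member over the 4 arrays were taken by the root mean square difference in log2 ratio among 14371 other named genes. For fog-3 the nearest were lron-7 at 0.052 and T10B10.8 at 0.0857, and for her-1 they were rgs-3 at 0.0533 and B0416.3 at 0.0746. For fem-3 they were C16C8.4 at 0.0961 and set-22 at 0.101, and for fog-2 F58A4.2 at 0.109 and picc-1 at 0.12. Within 0.2 of fem-3 there were 21 genes and of fog-2 19, compared with 81 for fog-3, 80 for her-1 and 94 for tra-3. fem-2, whose nearest were cfim-1 at 0.0332 and adr-2 at 0.0457, had 209 genes that close. fem-1, with ncbp-1 at 0.0422 and sec-5 at 0.0486, had 287, and tra-3 had str-46 at 0.0379 and adm-2 at 0.0854. With this many genes compared over 4 values, near matches are common and carry no test.

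**Figure D5:**
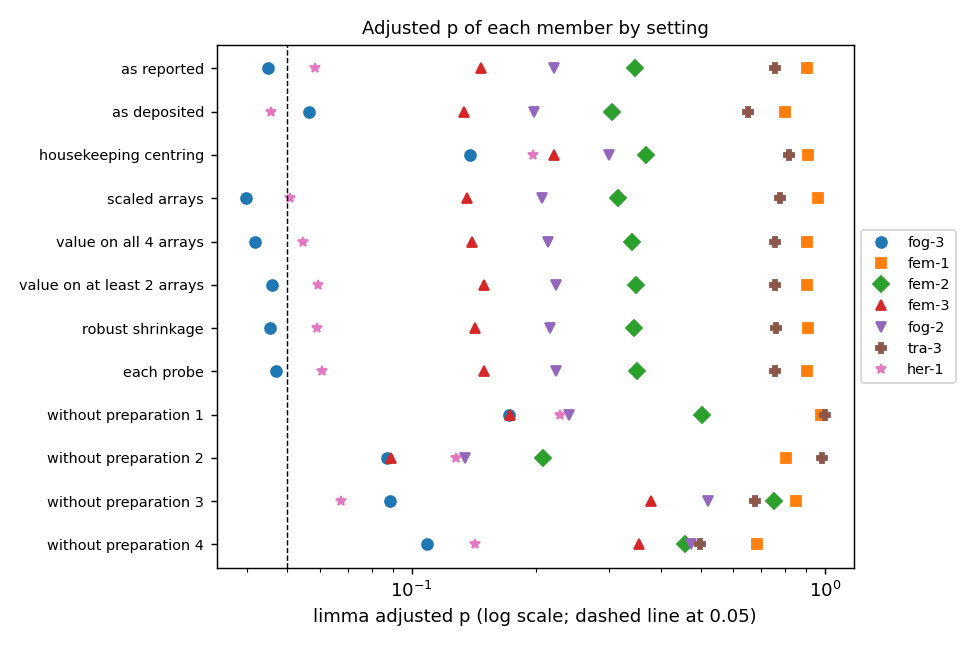
Limma adjusted p of each member (log scale) for the reported setting, 7 other settings and the 4 fits that leave out 1 preparation, with the threshold of 0.05 as a dashed line. fog-3 lies just left of the line in 6 of the 12 fits, her-1 in 1, and the other 5 members in 0.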

How the data were processed

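RNA of 4 wild-type L4 preparations was compared with a mixed reference on 2-channel arrays. The authors deposited a table of 21632 probes without a stated unit. Its deposited values were taken to be log2 ratios: turned back into ratios on that base, 100% of the negative entries of each array came out as multiples of 0.001, to within 0.02 of a step. For dyes, background correction, normalization and genome build, no source used here gives an account. Column medians as deposited were -0.05, 0.01, -0.10 and -0.04 for preparations 1 to 4, and whether the authors centred the arrays and in which direction the ratio runs stay unknown. The arrays correlated at r = 0.556 to 0.724 over probes. Values were present for 21084 to 21489 probes per array. The number of arrays limits the precision.

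Arrays were centred on their medians. Of the probes, 16450 named 1 gene, 247 several and 4935 none in the platform annotation. Of those with 1 gene, 16360 were matched by gene ID to a RefSeq table of assembly WBcel235, used for names and gene order only, and 0 symbols changed. Probes of a gene were averaged, and a value on at least 3 arrays was required, which left 19897 probes and genes. The test was limma 3.58.1 (lmFit, eBayes, 5.15 prior degrees of freedom) in R 4.3.3. The script was tested on simulated data. Python 3.11.15 (scipy 1.17.1, pandas 2.3.3, matplotlib 3.10.9) served for the rest. The members and lists were chosen with earlier results of these data known. Named genes were every measured member, every passing gene of each pathway list or otherwise the 2 with the largest absolute mean, the 2 largest passing genes of each marker list, the 2 nearest genes of each member, and ftr-1. Alternatives were values as deposited, housekeeping centring, arrays scaled to 1 median absolute value, a value on all 4 or on at least 2 arrays, robust shrinkage, single probes, and each preparation left out (with a value on at least 2 of the others).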

Additional observations from a re-analysis of the deposited data

How the results depend on the processing

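The number of members called higher, 1, was 0 under housekeeping centring, for values as deposited, and when any 1 preparation was left out (0 to 0). The mean of fog-3 was 0.63 as deposited and 0.68 with housekeeping centring, and 0.64 to 0.71 with 1 preparation left out. With values as deposited 1 member was lower, her-1, at -0.69. fem-1, near 0, changed sign without preparation 1 (0.021) and without preparation 3 (0.071), within a range of -0.16 to 0.071. ftr-1 was at 0.023 with scaled arrays, -0.11 to 0.16 with 1 preparation left out, and above 0 without preparation 3 (0.16) or 4 (0.037). dmd-3 was at -0.069 without preparation 3, within -0.069 to 0.37. The X signal list had 2 genes lower with values as deposited, with scaled arrays and with a value on all 4 arrays, and 0 to 1 with 1 preparation left out. The early sperm list had 0 to 1 genes higher and 0 lower with 1 preparation left out (0 to 0), and 0 lower with housekeeping centring. fem-2, fem-3, fog-2 and tra-3 stayed below 0 and did not pass in any of the 11 alternatives. The causes were not tested. Over all named genes, 1994 were higher and 1438 lower, against 1116 and 853 with housekeeping centring, 1206 and 762 without preparation 3, and 900 lower without preparation 1. No paired analysis was possible because the labels give 1 group only.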

Other observations

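ceh-39, a homeobox gene of the X chromosome count picked here with its values in view, was at -0.81, -0.25, -1.19 and -0.71 in preparations 1 to 4. All 4 values were below 0, and the mean of -0.74 ± 0.23 (SE, n = 4) just missed the threshold in limma (adjusted p = 0.0538). fox-1, in the same list, was also below 0 on all 4 arrays. cpb-1, a gene of spermatogenesis chosen the same way, was above 0 on all 4 arrays, with a mean of 0.62 ± 0.25 (SE, n = 4) that did not pass (adjusted p = 0.106).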
